A study of Mus musculus with 12 samples.

Results

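Glycogen is made and broken down in the cytosol by a small set of enzymes and the phosphatase subunits that control them, and 9 genes of this set were followed here in mouse kidney cortex. They are Ugp2, Gys1, Gbe1, Pygl, Pygb, Ppp1r3b, Ppp1r3c, Ppp1r3d and Stbd1, and each matched exactly 1 of the 27412 Ensembl gene IDs in the deposited table. All 9 passed the filter on low counts and were among the 19564 genes tested. Of the 9 genes, Ppp1r3b was higher and Gys1 was lower in the transgenic cortex, and the other 7 did not pass the test.

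The study sequenced RNA from a thin slice of outer cortex of both kidneys of 6 untreated male C57BL/6 mice. The WT group held 3 wild-type animals (1, 2 and 3), and the HIF2aM3 group held 3 animals of the genotype gamma-HIF2alphaM3 TG+ (17-51, 17-53 and 17-56). In that genotype a HIF2α transgene, HIF2αM3, is driven by the γ-glutamyl transferase promoter, which is active in proximal tubule cells, while the slice also holds other cells. No other allele or agent is given, and neither ages nor litters are stated. The transgenic animals all carry the prefix 17, and whether they belong to 1 line is not stated, so line and transgene cannot be told apart. HIF2α, encoded by Epas1, is an oxygen-regulated transcription factor, and the comparison asks how the cortical transcriptome differs when the transgene is present.

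Glycogen is built from UDP-glucose, which glycogen synthase adds to a growing chain and the branching enzyme rearranges into branches, and it is taken apart by glycogen phosphorylase. Protein phosphatase 1 (PP1) dephosphorylates synthase and phosphorylase, which favours synthesis, and is brought to the glycogen particle by targeting subunits of the PPP1R3 family. The healthy kidney holds little glycogen, whereas clear cell kidney tumours, in which HIF2α is active, are known for storing it, and several glycogen genes are known hypoxia-responsive genes in other cells.

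Library totals ran from 24032148 to 43499743 counts, apart from kidney 2 of 17-51 with 4161829, and every pair of libraries differed beyond sampling noise (chi-square over degrees of freedom of at least 1.77). Epas1 was at 204 ± 30.9 CPM (reads scaled to library size with TMM factors; SD, n = 3 animals) in WT and 267 ± 16.7 CPM in HIF2aM3, a log2 fold change of 0.39 ± 0.11 (SE; edgeR adjusted p = 0.0881). The sources used here do not say if transgene reads were counted under Epas1. Markers of the proximal tubule had summed levels of 25721 to 32355 CPM in WT and 27729 to 31581 CPM in HIF2aM3 animals, with 1 of 7 lower (Slc22a6) and the other 6 not past the test. Collecting duct markers summed to 439.6 to 471 CPM in WT and 257 to 320.1 CPM in HIF2aM3 (3 of 5 lower). Endothelial markers summed to 176 to 243 CPM and 293 to 305 CPM (2 of 4 higher), and leukocyte markers to 50.8 to 76.6 CPM and 88.3 to 104 CPM (1 of 4 higher). No marker of the remaining lists passed the test (loop of Henle and distal tubule 3583 to 4527 against 3177 to 3453 CPM, podocytes 417 to 577 against 466 to 496, hepatocytes 29.3 to 40.9 against 36.4 to 39.8, skeletal muscle 8.02 to 9.31 against 8.52 to 10.6). Of these sums, only that of loop of Henle and distal tubule did not overlap between genotypes, and it was lower in HIF2aM3. No listed marker in the table was at 0 in all libraries.

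The start sites of these genes are shown first because HIF dimers bind DNA at the core letters ACGTG or GCGTG, which could be searched in the RefSeq promoter table (build GRCm38.p6). It held 9 promoters of 8 of the genes, each a window of 300 bases around an annotated start, and the motif counts leave out Ppp1r3b, which has no entry there. Either core, on either strand, was found in 6 of the 9 (66.7%), and in 14380 of all 32851 promoters in the table (43.8%). The core ACGTG alone was found in 5 of the 9 (55.6%) and in 19.6% of all promoters. The promoters of Gys1 (chr7:45434589-45434888, plus strand), Ppp1r3c (chr19:36736555-36736854, minus strand) and Ugp2 (the upstream of its 2 starts, chr11:21371218-21371517, minus strand) are printed 5′ to 3′ along the gene, because they hold no core, the most ACGTG matches and the most matches of either core among the 9. Capitals mark the cores, read on either strand.
Gys1: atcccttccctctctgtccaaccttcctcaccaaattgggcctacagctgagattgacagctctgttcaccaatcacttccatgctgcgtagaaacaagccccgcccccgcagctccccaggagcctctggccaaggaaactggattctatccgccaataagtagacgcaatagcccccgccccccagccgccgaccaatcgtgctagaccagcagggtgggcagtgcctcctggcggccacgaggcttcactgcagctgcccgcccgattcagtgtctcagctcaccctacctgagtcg
Ppp1r3c: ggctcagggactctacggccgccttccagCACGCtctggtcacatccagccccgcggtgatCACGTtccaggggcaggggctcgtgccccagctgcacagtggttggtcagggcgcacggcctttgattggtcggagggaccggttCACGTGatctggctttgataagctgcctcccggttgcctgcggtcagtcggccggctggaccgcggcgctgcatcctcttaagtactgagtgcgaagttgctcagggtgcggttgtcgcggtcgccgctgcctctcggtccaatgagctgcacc
Ugp2: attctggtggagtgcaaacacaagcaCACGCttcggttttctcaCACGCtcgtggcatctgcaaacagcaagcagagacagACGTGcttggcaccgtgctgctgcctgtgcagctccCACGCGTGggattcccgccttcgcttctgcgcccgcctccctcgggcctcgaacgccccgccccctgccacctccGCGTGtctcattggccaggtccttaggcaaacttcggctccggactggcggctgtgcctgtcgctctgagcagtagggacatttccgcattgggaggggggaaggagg
The Gys1 window held 0 matches, the Ppp1r3c window 4, of which 3 were ACGTG, and the Ugp2 window 6, of which 1 was ACGTG. The run CACGTG of the Ppp1r3c window reads ACGTG on both strands, counts there as 2 matches and is also an E-box, the motif of other basic helix-loop-helix factors. These matches describe letters in a window and were not tested as sites.

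Levels were compared between genes per transcript length, as deposited RPKM averaged over the 2 kidneys of each animal. Ugp2 stood highest at 28.5 ± 0.913 RPKM in WT and 33.1 ± 2.08 RPKM in HIF2aM3 (SD, n = 3), above the animal range of each of the other 8 genes. The next 5 in WT were Pygb at 5.06 ± 0.585, Gys1 at 5.02 ± 0.114, Stbd1 at 4.21 ± 0.726, Gbe1 at 2.75 ± 0.217 and Pygl at 1.98 ± 0.346 RPKM. Among these, the animals of Pygb overlapped those of Gys1 and of Stbd1 in WT, while those of Gys1 and Stbd1, Stbd1 and Gbe1, and Gbe1 and Pygl did not. Among the 9 genes, the PP1-targeting subunits were lowest in WT, with Ppp1r3c at 0.670 ± 0.112, Ppp1r3d at 0.400 ± 0.0379 and Ppp1r3b at 0.356 ± 0.0430 RPKM, and Ppp1r3d and Ppp1r3b overlapped. In HIF2aM3 the order of the first 6 genes was the same by their means, with the animals of Pygb at 4.29 to 4.56, Gys1 at 3.97 to 4.28, Stbd1 at 3.26 to 4.10 and Gbe1 at 2.97 to 3.33 RPKM, so that Gys1 overlapped Stbd1 and Stbd1 overlapped Gbe1. Ppp1r3b moved from the 9th to the 7th place, with 0.760 ± 0.102 RPKM, and overlapped Ppp1r3c at 0.71 ± 0.0714 RPKM but not Ppp1r3d at 0.472 ± 0.0554 RPKM.

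**Figure D1:**
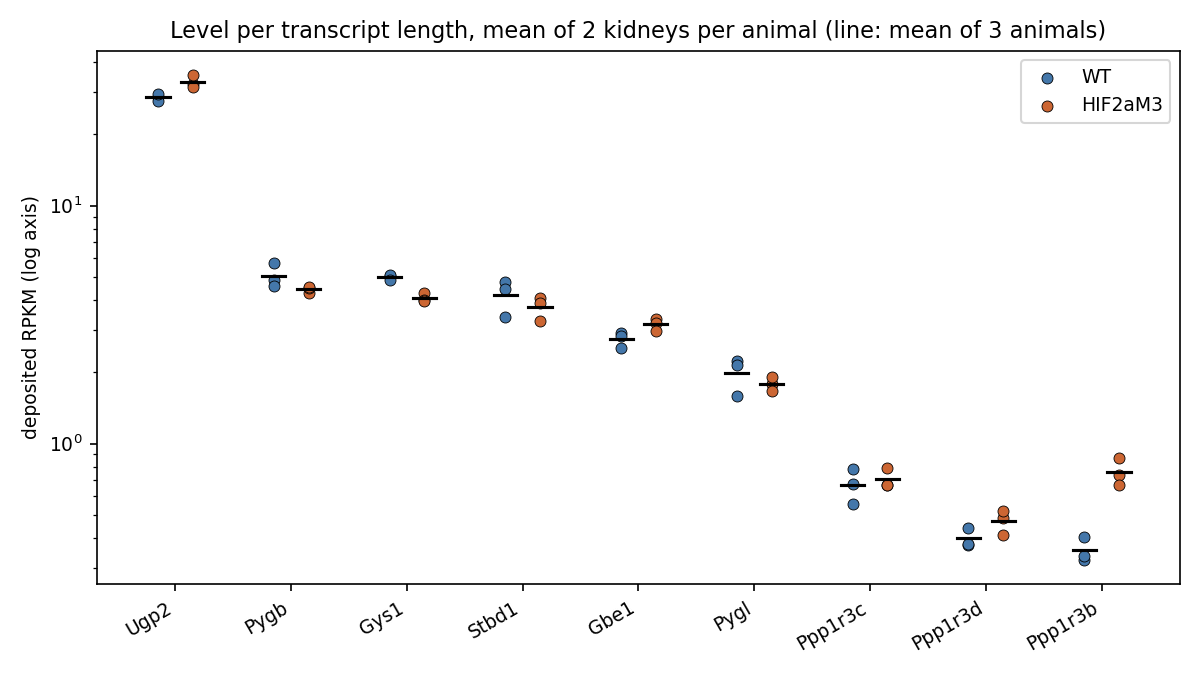
Deposited RPKM (log axis) of the 9 glycogen genes in each animal, as the mean of its 2 kidneys, with a line at the mean of 3 animals per genotype. Ugp2 lies near 30 and the 3 PP1-targeting subunits below 1, and Ppp1r3b is the lowest of the 9 in WT but not in HIF2aM3.

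Genotypes were compared on counts of the 2 kidneys summed per animal. Of all 19564 genes tested, 733 passed an adjusted p of 0.05 in edgeR's quasi-likelihood test (3.75%), 377 higher (1.93%) and 356 lower (1.82%) in HIF2aM3. Of the 9 glycogen genes 2 passed, 1 in each direction. Their log2 fold changes had a median of 0.03, with 5 positive and 4 negative, and the median over all genes tested was 0.00. The 3 animals of each genotype did not overlap for 4 of the 9 genes (Gys1, Ugp2, Pygb and Ppp1r3b), and for 32.0% of all genes tested (15.5% higher and 16.5% lower in HIF2aM3). With 9 genes chosen by role, these counts are a description. The p-values rest on the spread between 3 animals per genotype.

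Ugp2 encodes UDP-glucose pyrophosphorylase, which makes the glucosyl donor. Its level was 186, 173 and 194 CPM in WT 1, 2 and 3 and 198, 199 and 225 CPM in 17-51, 17-53 and 17-56. All 3 transgenic animals were above all 3 WT animals, by a small margin between the closest pair, and the libraries of the single kidneys overlapped (165 to 199 CPM against 196 to 239 CPM). The log2 fold change was 0.17 ± 0.07 (SE), which did not pass (edgeR adjusted p = 0.202). On the opposite strand, Gm12043 shares 78 of the 3069 exonic bases of Ugp2 in the GENCODE M21 annotation, and since it is not given whether counting used strand, reads there cannot be assigned. Gm12043 was at 4.05 ± 0.334 CPM in WT and 5.18 ± 0.197 CPM in HIF2aM3 (log2 fold change 0.36 ± 0.10, adjusted p = 0.0877 in edgeR).

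Gys1 encodes the glycogen synthase isoform of muscle and most other tissues, which lengthens the chain. The other synthase gene, Gys2, had a higher mean than Gys1 in RPKM, at 6.18 against 5.02 in WT and 7.44 against 4.08 in HIF2aM3. Its log2 fold change was positive and did not pass (0.26 ± 0.14, SE; edgeR adjusted p = 0.301). The Gys1 values below are therefore not those of all synthase RNA. Gys1 was at 53.6, 51.4 and 51.8 CPM in WT 1, 2 and 3 and at 43.7, 40.8 and 40.6 CPM in 17-51, 17-53 and 17-56. Every HIF2aM3 animal was below every WT animal. The libraries of single kidneys did not overlap either, with 49.8, 52.3 and 54.6 CPM as the lowest, median and highest of 6 in WT and 39.4, 41.4 and 44.1 CPM in HIF2aM3. Gys1 fell from 52.3 ± 1.14 to 41.7 ± 1.75 CPM (SD, n = 3), to 0.797 of its WT level, a log2 fold change of -0.33 ± 0.05 (SE; edgeR adjusted p = 0.0265). In this bulk tissue, fewer cells of a type and less RNA per cell cannot be told apart. Collecting duct, endothelial and leukocyte markers moved with genotype, and the summed loop of Henle and distal tubule markers did not overlap between genotypes. The part of these markers in the Gys1 result or the next results was not tested. With 1 animal left out, the call held without WT 2 (edgeR adjusted p = 0.0222) and was lost without WT 1 (0.0775), WT 3 (0.0629), 17-51 (0.0632), 17-53 (0.119) and 17-56 (0.0646), at log2 fold changes of -0.37 to -0.31. Kidney 2 alone gave -0.34 (adjusted p = 0.0528, edgeR), and limma on log2 of the deposited RPKM gave -0.29 with a pseudocount of 0.1 (adjusted p = 0.0628) and -0.24 with a pseudocount of 1 (adjusted p = 0.0672).

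Ruvbl2, which encodes an ATPase of chromatin remodelling complexes, lies on the opposite strand and shares 310 of the 4789 exonic bases of Gys1. It was at 19.9, 20.4 and 18.0 CPM in WT and at 17.5, 16.3 and 16.6 CPM in HIF2aM3, so its animals did not overlap and lay in the same direction as those of Gys1. Its log2 fold change of -0.21 ± 0.07 (SE) did not pass (edgeR adjusted p = 0.123). The sources used here do not say how reads in the shared bases were counted, and their part in the Gys1 value was not tested.

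Gbe1 encodes the branching enzyme. Its level was 57.6, 47.3 and 55.8 CPM in WT and 62.9, 60.9 and 56.9 CPM in HIF2aM3. WT 2 was the lowest and 17-56 lay below WT 1, so the genotypes overlapped, although 5 of the 6 HIF2aM3 libraries were above all WT libraries. The log2 fold change was 0.17 ± 0.08 (SE; edgeR adjusted p = 0.248).

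Because Gys1 and Gbe1 act one after the other, their RPKM ratio was taken within each animal, where library size largely cancels. It does not cancel fully, since the deposited RPKM holds 1 added read per count and the 2 kidneys weigh equally. Gys1 over Gbe1 was 1.73, 2.03 and 1.73 in WT 1, 2 and 3 and 1.28, 1.25 and 1.34 in 17-51, 17-53 and 17-56. Ugp2 over Gys1 was 5.61, 5.41 and 6.01 in WT and 7.57, 7.86 and 8.93 in HIF2aM3. Neither ratio overlapped between genotypes. The log2 ratios differed by -0.50 and 0.51 (HIF2aM3 minus WT). For each, a two-sided exact permutation test gave p = 0.10, the smallest that 3 against 3 animals allow, and 0.125 after Benjamini-Hochberg adjustment over the 5 ratios computed, so these differences could not pass. These ratios were chosen after the values were seen, and they leave out Gys2, the other synthase gene.

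Pygl and Pygb encode the liver and brain isoforms of glycogen phosphorylase, which releases glucose 1-phosphate from the chain ends. Pygl was at 13.4, 18.1 and 18.1 CPM in WT and 15.0, 15.6 and 13.8 CPM in HIF2aM3, with WT 1 the lowest of all 6 animals. The log2 fold change of -0.16 ± 0.12 (SE) did not pass (edgeR adjusted p = 0.439). Pygb was at 37.0, 41.5 and 34.7 CPM in WT and 33.4, 32.8 and 33.0 CPM in HIF2aM3. Its HIF2aM3 animals lay within a narrow band (SD 0.275 CPM against 3.45 CPM in WT), all below the lowest WT animal, while the single libraries overlapped (32.0 to 42.6 against 28.9 to 34.9 CPM). The log2 fold change was -0.19 ± 0.07 (SE; edgeR adjusted p = 0.154). Per transcript length Pygb exceeded Pygl in all 6 animals, with a ratio of 3.09, 2.57 and 2.15 in WT and 2.40, 2.37 and 2.72 in HIF2aM3, which overlapped (exact permutation p = 0.800, two-sided). The phosphorylase genes are related in sequence, and the sources used here do not say how reads matching more than 1 of them were counted.

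**Figure D2:**
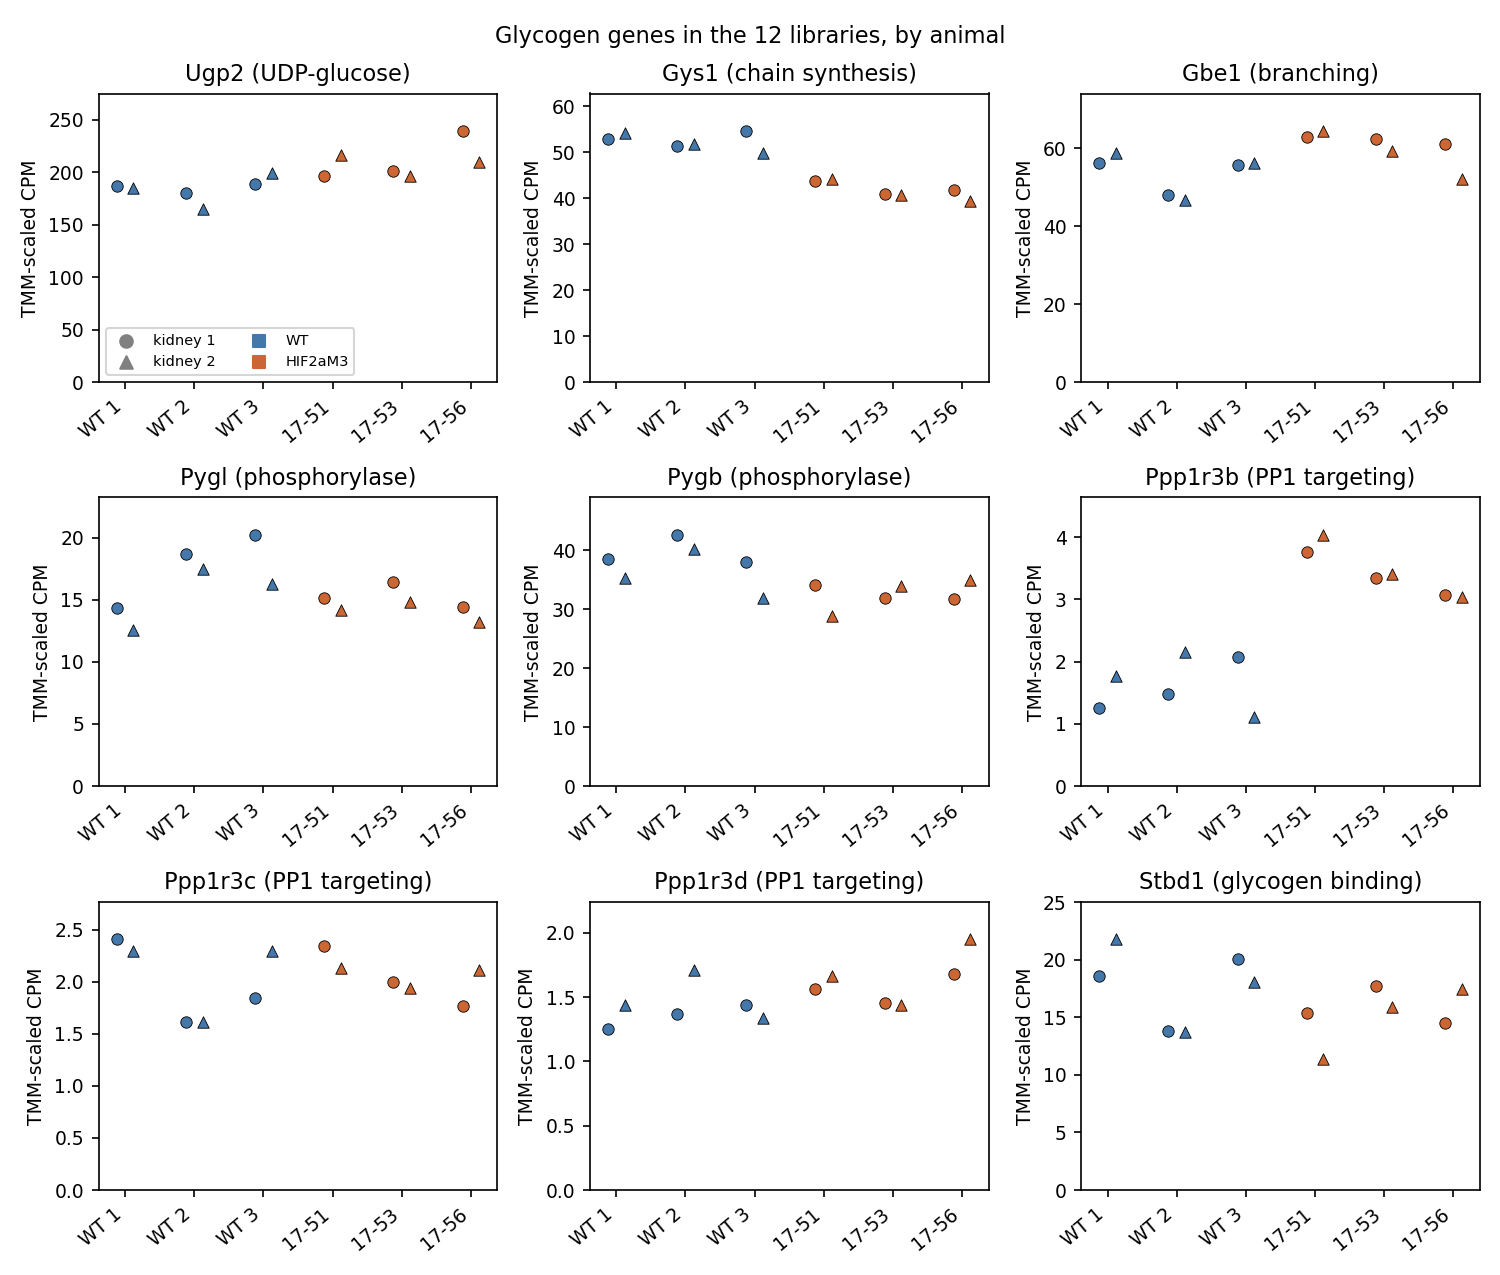
TMM-scaled CPM of the 9 glycogen genes in the 12 libraries by animal, with circles for kidney 1 and triangles for kidney 2, WT in blue and HIF2aM3 in orange, each axis starting at 0. The HIF2aM3 libraries lie between 39.4 and 44.1 CPM for Gys1, all below WT, and between 3.03 and 4.03 CPM for Ppp1r3b, all above WT, and for the other 7 genes the libraries of the genotypes overlap.

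Ppp1r3b encodes the PP1-targeting subunit GL, best known from liver, where it links PP1 to glycogen. It was at 1.5, 1.77 and 1.55 CPM in WT 1, 2 and 3 and at 3.78, 3.37 and 3.04 CPM in 17-51, 17-53 and 17-56. Every transgenic animal was above every WT animal, and so was every transgenic library (3.03, 3.37 and 4.03 CPM as the lowest, median and highest of 6, against 1.11, 1.62 and 2.15 CPM). Ppp1r3b rose from 1.61 ± 0.141 to 3.40 ± 0.373 CPM (SD, n = 3), a fold of 2.10 and a log2 fold change of 1.07 ± 0.14 (SE; edgeR adjusted p = 0.0177). The value rests on few reads, with 76, 118 and 100 in the WT animals and 123, 289 and 173 in the HIF2aM3 animals. The kidneys of WT 3 differed most, with 62 reads (2.07 CPM) in kidney 1 and 38 reads (1.11 CPM) in kidney 2.

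The Ppp1r3b call held without WT 2 (edgeR adjusted p = 0.0133) and without 17-56 (0.0293), and was lost without WT 1 (0.0532), WT 3 (0.0522), 17-51 (0.0674) and 17-53 (0.0808), while the log2 fold change stayed between 0.99 and 1.14. Kidney 2 alone gave 1.02 (adjusted p = 0.0897, edgeR), and limma on log2(RPKM + 1), which shrinks changes of a gene at this level, gave 0.38 (adjusted p = 0.0506). With a pseudocount of 0.1, limma gave 0.91 and the call held (adjusted p = 0.0453).

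Ppp1r3c and Ppp1r3d, which also encode PP1-targeting subunits, were at a read depth similar to that of Ppp1r3b. Ppp1r3c encodes the subunit also called PTG (protein targeting to glycogen), known as hypoxia-responsive in other cells. Its level was 2.36, 1.60 and 2.08 CPM in WT and 2.31, 1.97 and 1.92 CPM in HIF2aM3, where all 3 animals lay inside the WT range. Its log2 fold change was 0.03 ± 0.18 (SE; edgeR adjusted p = 0.933). Ppp1r3d, a further glycogen-targeting subunit, was at 1.35, 1.51 and 1.38 CPM in WT and 1.57, 1.44 and 1.79 CPM in HIF2aM3. The genotypes overlapped through WT 2 and 17-53, and the log2 fold change was 0.18 ± 0.15 (SE; adjusted p = 0.511 in edgeR).

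Set against Ppp1r3c and Ppp1r3d within each animal, the RPKM ratio of Ppp1r3b to Ppp1r3c was 0.417, 0.728 and 0.50 in WT and 1.10, 1.10 and 1.01 in HIF2aM3. The ratio of Ppp1r3b to Ppp1r3d was 0.866, 0.913 and 0.888 in WT and 1.79, 1.79 and 1.29 in HIF2aM3. Neither overlapped between genotypes. By animal, Ppp1r3b was below both subunits in WT and above both in HIF2aM3, narrowly so in 17-56 (0.671 against 0.667 RPKM for Ppp1r3c). Single kidneys did not all follow. In WT 3 kidney 1, Ppp1r3b at 0.440 RPKM was above Ppp1r3d at 0.396 RPKM. In 17-56 kidney 2, it was at 0.688 RPKM, below Ppp1r3c at 0.746 RPKM. Kidney 2 of 17-51 held 17, 9 and 7 reads of Ppp1r3b, Ppp1r3c and Ppp1r3d and weighs as much as kidney 1. The log2 ratios differed by 1.00 and 0.85 (HIF2aM3 minus WT). Each had an exact two-sided permutation p of 0.10, the smallest possible here, and 0.125 adjusted over the 5 ratios. These ratios leave out Ppp1r3e and Ppp1r3f, whose mean RPKM exceeded that of Ppp1r3b in both genotypes. They were at 3.79 and 1.09 RPKM in WT (Ppp1r3b 0.356) and 3.66 and 1.05 RPKM in HIF2aM3 (Ppp1r3b 0.760). Their log2 fold changes of -0.09 ± 0.08 and -0.08 ± 0.06 (SE) did not pass (edgeR adjusted p = 0.489 and 0.444).

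Stbd1 encodes a glycogen-binding protein that links glycogen to membranes and its breakdown in lysosomes. It was at 20.2, 13.7 and 19.0 CPM in WT and 14.8, 16.8 and 15.7 CPM in HIF2aM3. All 3 transgenic animals lay between WT 2 and the other 2 WT animals, and the log2 fold change of -0.16 ± 0.14 (SE) did not pass (edgeR adjusted p = 0.537).

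**Figure D3:**
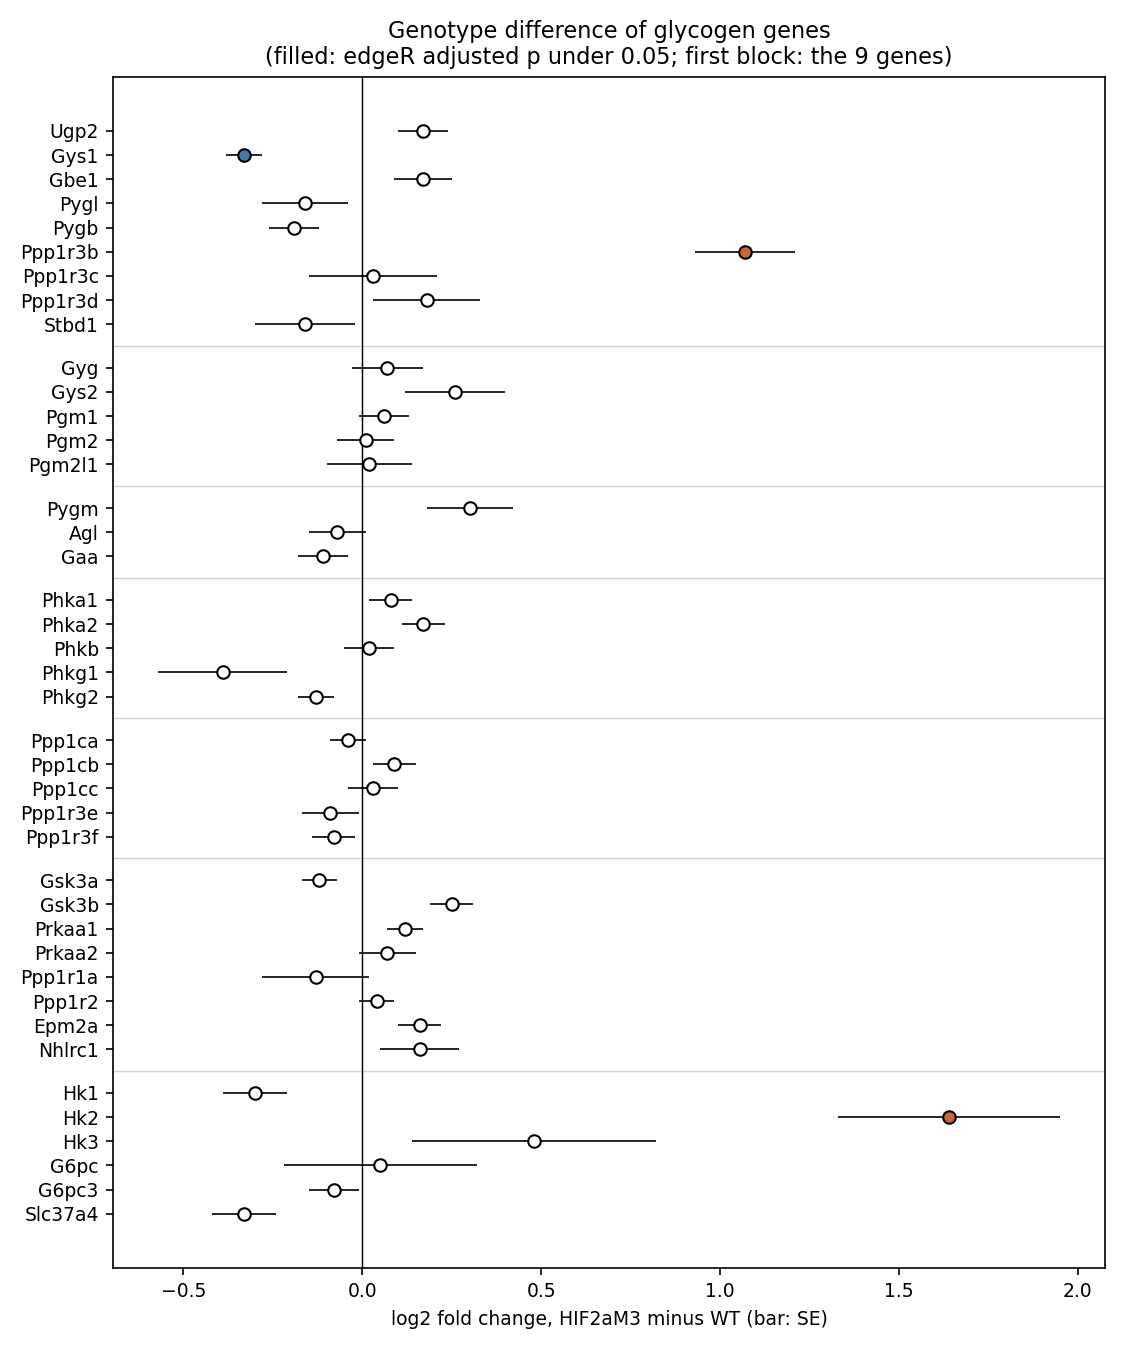
Log2 fold change (HIF2aM3 minus WT, bars SE, n = 3 animals per genotype) of the 9 glycogen genes, first block, and of 32 further tested genes of glycogen and glucose 6-phosphate metabolism by list. Filled points passed an edgeR adjusted p of 0.05: Gys1 at -0.33, Ppp1r3b at 1.07 and Hk2 at 1.64.

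Further genes of the pathway were read in 6 lists holding 35 genes, of which 32 passed the count filter. Only Hk2 of the 32 passed the test, and it was higher, beside 3.75% of all genes tested in either direction. The 32 had a median log2 fold change of 0.03, with 20 positive and 12 negative, and 12 of them did not overlap between the animals, beside 32.0% of all genes tested. Hk2, which encodes a hexokinase that supplies glucose 6-phosphate, was at 0.317, 0.600 and 0.279 CPM in WT and 1.38, 1.39 and 1.02 CPM in HIF2aM3. The rise of 1.64 ± 0.31 on the log2 scale (SE; edgeR adjusted p = 0.0402) went from 74 reads in all WT animals together to 222 in HIF2aM3. It was 1 of 6 tested genes of glucose 6-phosphate supply and release. With 1 animal left out the Hk2 call held without WT 2 (edgeR adjusted p = 0.0116) and was lost without WT 1 (0.106), WT 3 (0.0887), 17-51 (0.102), 17-53 (0.138) and 17-56 (0.0666), at log2 fold changes of 1.42 to 2.07. It was also lost with either kidney alone (0.0770 and 0.0914) and without WT 1 kidney 2 (0.0543), WT 2 kidney 1 (0.0686) or 17-56 kidney 2 (0.107).

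In the list of chain initiation and donor synthesis 0 of 5 passed, and all 5 values were positive. Gys2, the liver isoform of glycogen synthase, had the smallest p there, at 6.18 ± 1.24 RPKM in WT and 7.44 ± 0.613 RPKM in HIF2aM3 (SD, n = 3; log2 fold change on counts 0.26 ± 0.14, edgeR adjusted p = 0.301). It is also 1 of the 5 hepatocyte markers above and makes up most of their summed level (20.6 CPM in WT and 24.7 CPM in HIF2aM3), so that sum is no separate measure of hepatocyte RNA. Of 3 breakdown genes 0 passed, and the muscle phosphorylase gene Pygm had 0.30 ± 0.12 (adjusted p = 0.168, edgeR). Pygm makes up most of the summed skeletal muscle markers above (5.70 CPM in WT and 7.06 CPM in HIF2aM3). That sum is likewise no separate measure of muscle RNA. Of 5 genes of phosphorylase kinase, which activates phosphorylase, 0 passed, Phka2 having 0.17 ± 0.06 (edgeR adjusted p = 0.148). For PP1 and its other targeting subunits 0 of 5 tested passed, and the catalytic subunit gene Ppp1cb had 0.09 ± 0.06 (adjusted p = 0.418, edgeR). Among kinases, phosphatase inhibitors and the laforin-malin pair 0 of 8 passed. There Gsk3b, which encodes a kinase that phosphorylates glycogen synthase, went from 96.1 ± 5.01 to 114 ± 4.58 CPM (0.25 ± 0.06, edgeR adjusted p = 0.0619), and its animals did not overlap. These 0 calls stand beside 9 of the 32 genes, Hk2 included, at an unadjusted p under 0.05, against 24.9% of all genes tested and 3 of the 9 glycogen genes. DESeq2 called 4 of the 32 and 10.5% of all genes tested, with Gsk3b and Hk2 higher and Hk1, a further hexokinase gene, and Slc37a4, the glucose 6-phosphate transporter gene, lower.

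The genes whose log2 CPM ran most like the 2 called genes over the 12 libraries were named among 15301 genes with a mean of at least 1 CPM. For Ppp1r3b these were Xpc (Pearson r = 0.956), a DNA repair gene, Pcdh18 (0.956), a protocadherin gene, and Spry1 (0.952), an inhibitor of receptor tyrosine kinase signalling. Their log2 fold changes were 0.23 ± 0.04, 0.97 ± 0.10 and 1.08 ± 0.12 (SE). For Gys1 they were Hadha (r = 0.976), a mitochondrial fatty acid oxidation gene, St6galnac2 (0.971), a sialyltransferase gene, and Ptges2 (0.971), a prostaglandin E synthase gene, with log2 fold changes of -0.40 ± 0.06, -0.55 ± 0.07 and -0.39 ± 0.06. The 12 libraries share 6 animals and the genotype difference, so these correlations describe the libraries and carry no p.

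The kidneys of an animal served as a check of spread within animals. The labels number them 1 and 2 and do not say what the number means. If it is arbitrary, a direction between kidneys has no meaning. For Gys1, kidney 2 differed from kidney 1 by log2 values of -0.13 to 0.04 over the 6 animals, all smaller in size than its genotype difference of -0.33. Ppp1r3b ran from -0.90 in WT 3 to 0.54, with a median size of 0.30 against its genotype difference of 1.07. Whether the genotype difference depended on the kidney was tested with the animal as a block, and 0 of 18164 genes passed (edgeR; 534 genes had an unadjusted p under 0.05). All 9 glycogen genes had an adjusted p of 1.00 there. Pygl was lower in kidney 2 in 6 of 6 animals, by log2 values of -0.31 to -0.09, and the other 8 genes were higher in kidney 2 in 2 to 4 animals. The difference between kidneys passed for 0 of the 9 genes and for 17 of 18164 genes (0.0936%), and that of Pygl was -0.16 (edgeR adjusted p = 0.266).

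**Figure D4:**
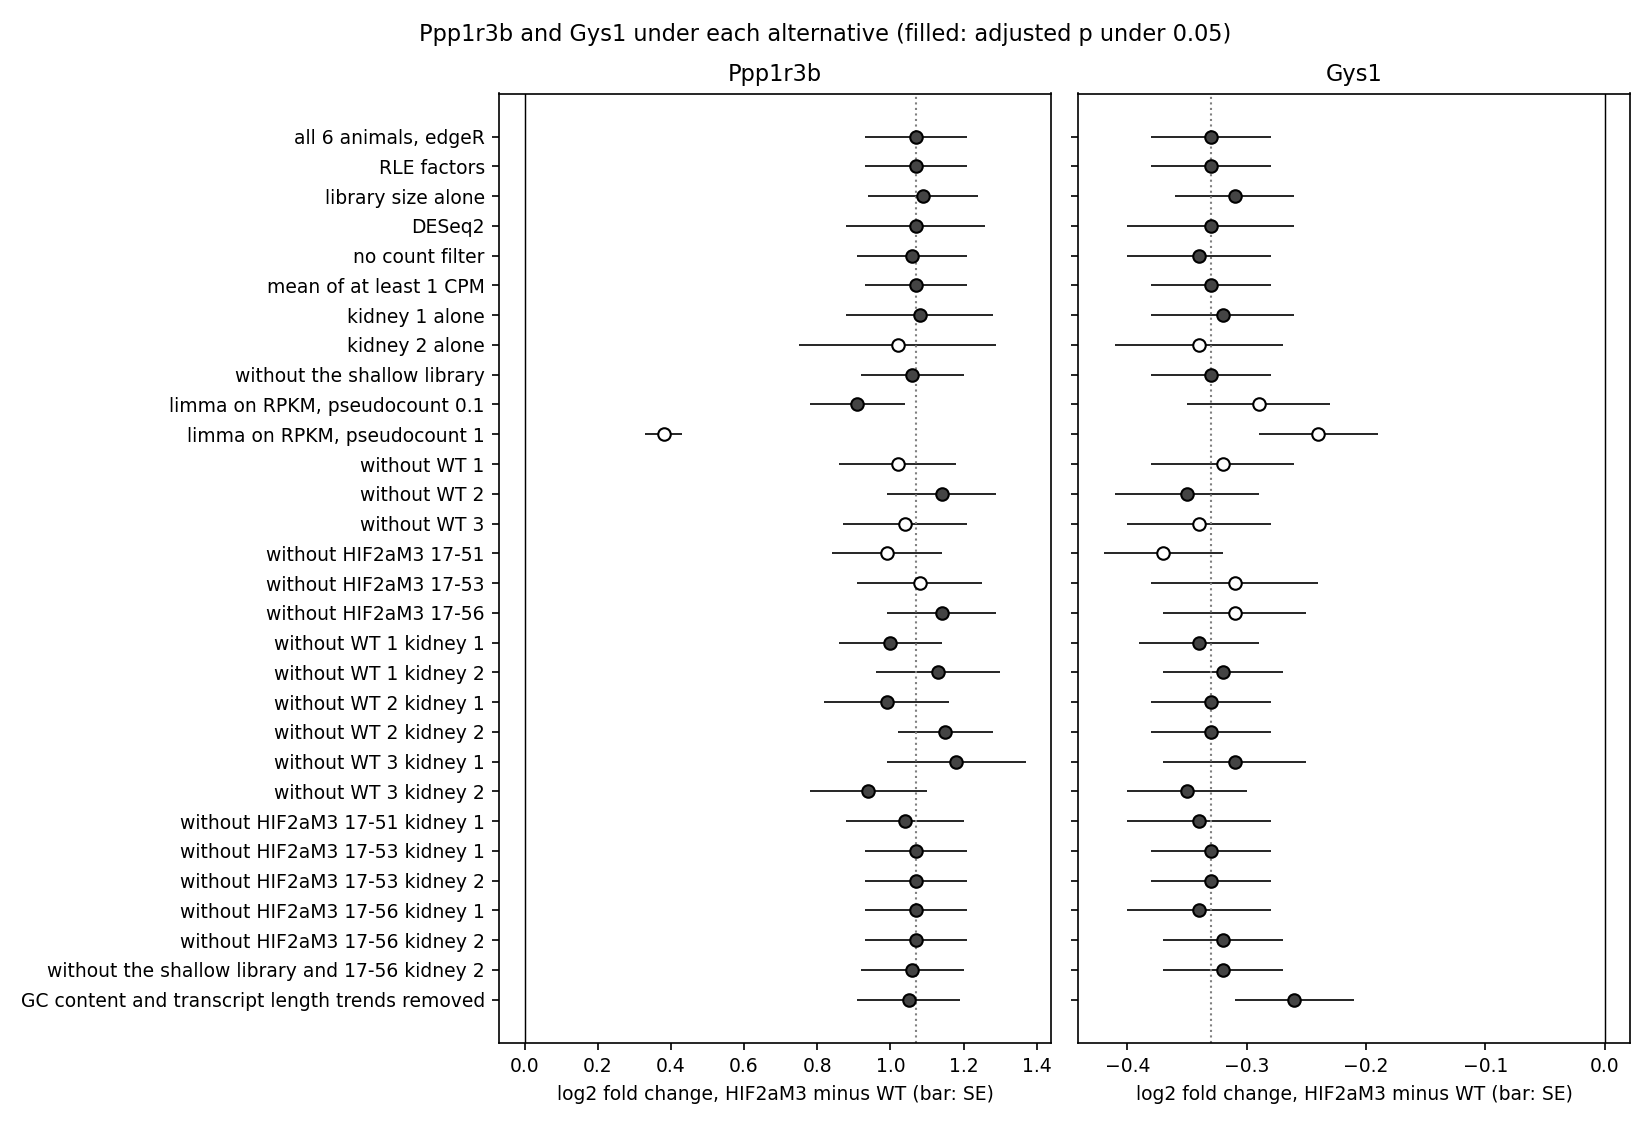
Log2 fold change of Ppp1r3b and Gys1 (HIF2aM3 minus WT, bars SE) under the main setting, first line and dotted, and 29 alternatives, filled where the adjusted p was under 0.05. Ppp1r3b stays between 0.38 and 1.18 and Gys1 between -0.37 and -0.24. Open points gather at the settings with 1 animal left out, kidney 2 alone and limma on RPKM. For limma with a pseudocount of 0.1, Ppp1r3b is filled.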

How the data were processed

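RNA of outer kidney cortex was sequenced after Illumina TruSeq preparation, per the labels' protocols. The submitters' processing notes name build mm9. The sources used here state no aligner, counter, annotation or use of strand. The authors deposited raw counts of reads for each gene in each library, per the file headers. RPKM was computed by the authors with 1 read added to each count, as the values show, and the deposited log2 RPKM is their log2 (within 5.3e-05). Symbols came from a GENCODE name table that matched 24630 of 27412 IDs (the rest held 1.18% of counts). That annotation is on another build and served for names, overlaps, length and GC content only.

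The replicate was the animal, whose 2 kidneys were summed, and the sums were tested with edgeR 4.0.16 in R 4.3.3 (filterByExpr, TMM, robust quasi-likelihood fit, two-sided test, Benjamini-Hochberg adjustment over 19564 genes, threshold 0.05). The test of kidney by genotype used the 12 libraries and was added after the data were seen, as were the ratios between genes and the alternatives for Hk2. The 9 genes, the lists and the markers were chosen with earlier results of these data known. Named were all 9 genes, genes overlapping them in annotation, listed genes past the threshold, the listed gene with the smallest p per list and the 3 genes most like each of Ppp1r3b and Gys1. Ppp1r3e and Ppp1r3f were named as the other tested PP1-targeting subunits. Gys2 and Pygm stand both in a pathway list and in a marker list. Alternatives used RLE factors, library size alone, DESeq2 1.42.0, other count filters, single kidneys, limma 3.58.1 on log2 RPKM with pseudocounts of 0.1 and 1, and each animal or library left out. Those without the shallow library and 17-56 kidney 2, and with GC content and length trends removed, were chosen after seeing the data. The script was tested on simulated data. Animal totals ran from 32392033 to 85018818 counts, so genes near 1 CPM rest on under 100 reads in some animals.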

Additional observations from a re-analysis of the deposited data

How the results depend on the processing

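Of 19564 genes, 733 were called. DESeq2 called 2058, kidney 2 alone 337, limma on RPKM 140 (pseudocount 0.1) and 114 (pseudocount 1), and removing GC content and length trends left 488. No count filter gave 439 higher and 564 lower calls, a mean of at least 1 CPM 343 and 401, and library size alone 376 and 249, against 377 and 356. With 1 animal left out the count ran from 11 (without 17-53) to 1549 (without WT 2), and was 42 without 17-51, 115 without WT 1, 187 without WT 3 and 196 without 17-56. With 1 library left out it ran from 479 (17-56 kidney 1) to 1078 (WT 2 kidney 2), with 480 without WT 1 kidney 2. Of the 9 glycogen genes 2 were called, against 0 with kidney 2 alone, 1 and 0 with limma on RPKM (pseudocounts 0.1 and 1), and 0 to 2 with 1 animal left out; the cause was not tested. With each of the 12 libraries left out in turn, Gys1 and Ppp1r3b both kept their calls. The 7 other genes passed in none of 29 alternatives, with adjusted p from 0.0516 (Stbd1) to 0.999 (Ppp1r3c). Ppp1r3c, at 0.03, reached 0.15 without WT 1 and changed sign with kidney 2 alone (-0.02), without WT 2 (-0.12), without 17-51 (-0.05), without WT 3 kidney 1 (-0.02), 17-51 kidney 1 (-0.04) or 17-56 kidney 2 (-0.0035), and without the shallow library and 17-56 kidney 2 (-0.00046). The other 8 kept their direction. Hk2 kept its direction in 28 alternatives and its call in 15, with log2 fold changes of 0.73 and 0.12 by limma on RPKM (pseudocounts 0.1 and 1). No paired analysis was possible because no litter or other link between animals of the 2 genotypes is stated. Among the 9 genes, depth limits the 3 PP1-targeting subunits most, with 51 to 289 reads per animal.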
